A study of Mus musculus with 4 samples.

Results

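Advillin (*Avil*) and other genes of the gelsolin family, *Gsn*, *Capg*, *Flii*, *Svil*, *Scin* and *Vil1*, were followed in sorted bone marrow LSK cells with and without *Bptf*. They are 7 of the 18598 genes in the expression table, taken by gene symbol. The family was chosen by earlier results of the same 4 libraries, in particular by the difference of *Avil* between genotypes. The values of its members are therefore given as a description, and no p-value of a member is printed. Where a test called a member, nothing is read from that call. *Avil* was nearly silent in control cells and readily detected in *Bptf* cKO cells, *Scin* was also higher in both *Bptf* cKO libraries, and the other 5 members differed little or overlapped between the genotypes.

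LSK cells lack lineage markers and carry SCA-1 and c-KIT, and they hold the hematopoietic stem and progenitor cells. *Bptf* encodes the largest subunit of the NURF chromatin remodeler, and the study asked which genes depend on it in these cells. All mice were C57BL/6, about 3 months old and given pIpC (polyinosinic-polycytidylic acid, an inducer of interferon). *Bptf* cKO mice (labelled *Bptf* -/-) carried the floxed *Bptf* f/f alleles and *Mx1*-cre, which interferon switches on in bone marrow and in other tissues. The controls were littermates with the *Bptf* f/f alleles and no cre, so an effect of cre and an effect of losing *Bptf* cannot be told apart here. Each genotype had 2 libraries, and each library was made from a pool of 5 mice, 10 days after cre was induced.

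The gelsolin family is built from repeats of a calcium-responsive domain that binds actin. Gelsolin severs actin filaments and caps their fast-growing end, which lets a cell take down and rebuild its cortex during shape change, migration and secretion. Adseverin, the product of *Scin*, also severs and caps, whereas CAPG caps without severing. Villin and advillin add a C-terminal headpiece that lets them bundle filaments. Villin is known from the microvilli of intestine and kidney, and advillin from sensory neurons and tuft cells. Supervillin, encoded by *Svil*, ties actin and myosin to membranes, and FLII joins gelsolin repeats to a leucine-rich region and also acts in the nucleus. In blood cells, gelsolin family proteins are best known from platelets, granulocytes and macrophages.

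The promoter of *Avil* is shown because this gene carries the largest difference of the family, together with that of *Scin*, the next in size, and that of *Slc7a11*. The latter was the last of the 8 genes nearest to *Avil* in pattern over the libraries. It is shown because its window was the only one of the 3 on hand for these genes to hold the same motif. The windows of *Stc2* and *Fcer1a*, nearer to *Avil* in pattern, did not hold it. That the *Slc7a11* stretch shares this motif with the *Avil* stretch therefore follows from the choice of *Slc7a11*. Each stretch is the 150 bases before the RefSeq start site, on the strand of the gene, on GRCm38.p6. The *Avil* stretch lies at chr10:127000559-127000708 on the plus strand, that of *Slc7a11* at chr3:50443614-50443763 and that of *Scin* at chr12:40134229-40134378, both on the minus strand. Capitals mark matches to TGATGNAA, the core of the element bound by C/EBP and ATF proteins such as ATF4, read on either strand.
Avil: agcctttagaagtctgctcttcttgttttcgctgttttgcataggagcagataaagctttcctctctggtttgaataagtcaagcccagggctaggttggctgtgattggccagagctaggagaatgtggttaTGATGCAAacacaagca
Slc7a11: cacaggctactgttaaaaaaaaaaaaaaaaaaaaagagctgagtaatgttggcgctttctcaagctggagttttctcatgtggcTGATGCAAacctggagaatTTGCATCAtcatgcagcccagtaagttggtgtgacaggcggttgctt
Scin: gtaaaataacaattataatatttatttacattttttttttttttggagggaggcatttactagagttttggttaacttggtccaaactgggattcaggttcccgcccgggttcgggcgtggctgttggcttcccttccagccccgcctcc

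The *Avil* stretch held 1 match, from 17 to 10 bases before the start site. The *Slc7a11* stretch held 2 matches, from 66 to 59 bases before the start site and, on the other strand, from 47 to 40 bases before it. Among all 32851 promoter windows of 300 bases (250 before and 50 after a start site), 3.97% held TGATGNAA on either strand. The table had 8 such windows for 6 of the 7 members (none was used for *Svil*), and the window of *Avil* was the only one of the 8 with this motif. TGANTCA, the site of AP1, was in none of the 8 windows and in 7.81% of all windows. The CArG box, the site of SRF, was in the *Vil1* window alone among the 8 and in 1.63% of all windows. These are matches of letters, and binding was not measured in these data.

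The libraries were first checked against their labels. Reads on listed genes numbered 24875746 and 14091054 in the control libraries (replicates 1 and 2, the order kept throughout) and 30134742 and 14104526 in the *Bptf* cKO libraries. *Bptf* had 5520.4 and 5850.1 normalized counts in the control libraries and 3398 and 3320 in the *Bptf* cKO libraries, a log2 fold change of -0.76 (SE 0.090, limma adjusted p = 0.0439). Both replicate 2 libraries stood apart from both replicate 1 libraries. *Xist*, a marker of female cells, had 0.775 and 3.25 normalized counts in replicate 1 of control and *Bptf* cKO and 15675 and 11843 in replicate 2. The Y-linked gene *Ddx3y* had 1837 and 456 in control and 1835 and 769 in *Bptf* cKO. For *Eif2s3y*, also Y-linked, these values were 1453 and 340 in control and 1453 and 744 in *Bptf* cKO. Sex-linked genes thus differed between the replicate numbers in both genotypes. *Pou5f1*, a pluripotency gene, was at 0 in both replicate 1 libraries and at 582 and 738 in replicate 2. The difference between genotypes within each replicate number is therefore given for the members. All 7 LSK markers on the list were listed, among them *Kit* at 13634 to 17051 normalized counts. *Procr* and *Slamf1*, markers of stem cells, had log2 fold changes of -0.81 and -0.80 (limma adjusted p 0.263 and 0.320).

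*Avil* lies on the plus strand of chromosome 10, from 127000709 to 127020994 on GRCm38 (GENCODE vM21). It had 3.10 and 8.32 normalized counts in the control libraries and 474 and 793 in the *Bptf* cKO libraries. A normalized count is the number of reads of a gene, scaled by the size factor of its library. Both *Bptf* cKO libraries were far above both control libraries, and within a genotype the higher library was 2.68 times the lower in control and 1.67 times in *Bptf* cKO. The means were 5.71 ± 3.69 in control and 634 ± 225 in *Bptf* cKO (SD, n = 2 libraries each), a ratio of 111. After 1 was added to each normalized count, the log2 fold change was 6.64 (SE 0.51), which placed *Avil* at rank 2 of 14858 tested genes by size of rise. The difference was 6.86 between the replicate 1 libraries and 6.41 between the replicate 2 libraries. In bulk RNA, more cells with *Avil* transcripts and more transcripts per cell cannot be told apart.

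The control values of *Avil* rest on few reads. It had 4 and 6 reads in the control libraries and 730 and 562 reads in the *Bptf* cKO libraries. Exact Poisson 95% intervals for the normalized counts were 0.845 to 7.94 and 3.05 to 18.1 in control and 441 to 510.1 and 729 to 861 in *Bptf* cKO. The intervals of the 2 *Bptf* cKO libraries did not overlap, whereas those of the 2 control libraries did. With reads summed over each genotype, 10 against 1292, the ratio of read rates was 116, with an exact conditional 95% interval of 62.7 to 242. These intervals cover counting error alone and not the spread between mice. Per kilobase of annotated exon, *Avil* had 0.912 and 2.45 normalized counts in control and 139.6 and 233 in *Bptf* cKO. That moved it from percentile 4.18 and 12.2 of the genes with an exon length to percentile 61.9 and 72.5.

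*Avil* sits among other genes whose reads could reach it. *Ctdsp2*, a phosphatase gene on the same strand, ends 733 bases before it and had 6828 and 6069 normalized counts in control and 5218 and 5830.0 in *Bptf* cKO. *Tsfm*, a mitochondrial translation elongation factor gene on the opposite strand, overlaps *Avil* by 9423 bases, of which 165 are exonic in both genes, or 4.86% of the exonic bases of *Avil*. *Tsfm* had 526 and 621 normalized counts in control and 565 and 698 in *Bptf* cKO, a log2 fold change of 0.14 (adjusted p = 0.768, limma). Whether the reads were counted by strand is not given in the sources used here, so reads in the shared exonic bases cannot be assigned. For *Ctdsp2* the log2 fold change was -0.22, with an adjusted p of 0.422 in limma. Neither neighbour showed a difference near that of *Avil*, and whether reads of these neighbours reached *Avil* was not tested. Of the 14 nearest protein-coding neighbours of the 7 members, 12 were listed and tested. Limma called 0 of them, with 2 at an unadjusted p under 0.05, beside 110 and 2340 of all 14858 tested genes. edgeR also called 0 of these 12, with 2 at an unadjusted p under 0.05, beside 94 and 2333 of all tested genes. For DESeq2 these numbers were 0 and 1, beside 698 and 2099. Nothing is read from the neighbours' counts beside those over all genes.

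**Figure D1:**
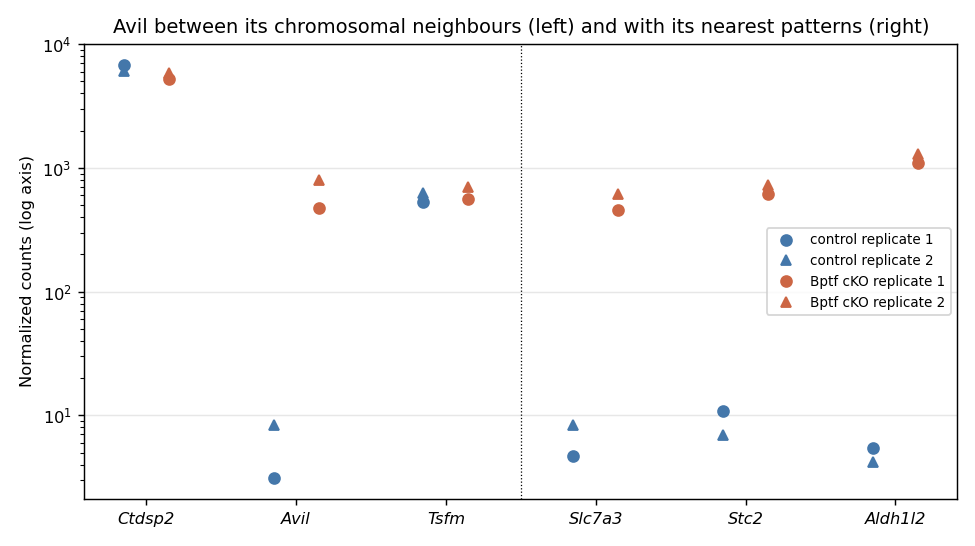
Normalized counts (log axis) of *Avil* and its chromosomal neighbours *Ctdsp2* and *Tsfm* (left of the dotted line) and of the 3 genes nearest to *Avil* in pattern (right), with 1 point per library, circles for replicate 1 and triangles for replicate 2. *Avil* goes from 3.10 and 8.32 in control to 474 and 793 in *Bptf* cKO, while the points of *Tsfm* stay between 526 and 698.

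The genes whose pattern over the 4 libraries was nearest to that of *Avil* were found by the Euclidean distance between log2 profiles centred on each gene's mean, a description that uses the same difference between genotypes. The nearest was *Slc7a3*, a cationic amino acid transporter gene, at a distance of 0.587, with 4.65 and 8.32 normalized counts in control and 459 and 618 in *Bptf* cKO. *Stc2*, which encodes a secreted glycoprotein, followed at 1.39, with 10.9 and 6.93 in control and 618 and 734 in *Bptf* cKO. *Aldh1l2*, a mitochondrial folate enzyme gene, came next at 1.54, with 5.43 and 4.16 in control and 1096 and 1305 in *Bptf* cKO. *Fcer1a*, *Igkv12-46*, *Cox6a2*, *Cdh17* and *Slc7a11* completed the 8, at distances from 1.73 to 2.21. *Cdh17* was at 0 in control replicate 1, and *Igkv12-46* was at 0 in both control libraries and its reads can be shared with other immunoglobulin segments. Promoter windows were on hand for 3 of these 8 genes. That of *Slc7a11* held TGATGNAA, and those of *Stc2* and *Fcer1a* did not.

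*Avil* is a marker of sensory neurons and tuft cells elsewhere in the body. Of 5 sensory neuron markers, *Calca* and *Prph* among them, 0 were among the listed genes, each of which had at least 11 reads over the 4 libraries. Of 4 tuft cell markers only *Trpm5* was listed, with 6.98 and 8.32 normalized counts in control and 5.85 and 12.7 in *Bptf* cKO. The part of such cells in the level of *Avil* was not tested. Of 5 epithelial markers, 4 were listed, with summed levels of 917 and 1071 in control and 817 and 897 in *Bptf* cKO, most of it *Krt18*.

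**Figure D2:**
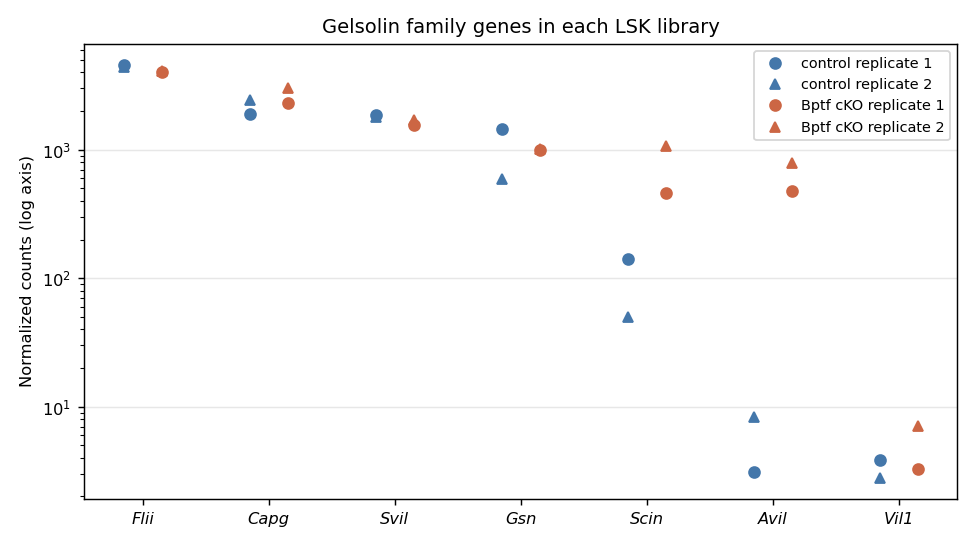
Normalized counts (log axis) of the 7 gelsolin family genes in each LSK library, circles for replicate 1 and triangles for replicate 2, with control in blue and *Bptf* cKO in orange. *Avil* and *Scin* are the genes with both *Bptf* cKO points above both control points, and *Vil1* stays at or below 7.05 in every library.

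*Scin*, the gene of adseverin, is on chromosome 12 (minus strand), between 40059769 and 40134228. It had 140.3 and 49.9 normalized counts in control and 458 and 1062 in *Bptf* cKO. Both *Bptf* cKO libraries were above both control libraries, but the libraries of a genotype were far apart, by 2.81 times in control and 2.32 times in *Bptf* cKO. The means were 95.1 ± 63.9 and 760.0 ± 428 (SD, n = 2 each), a ratio of 7.99. The log2 fold change was 3.04 (SE 0.61), from 1.70 between the replicate 1 libraries to 4.39 between the replicate 2 libraries. With 36 to 753 reads per library, counting error is smaller than this spread.

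Mast cell and basophil markers moved with *Scin*. All 4 markers on that list (*Cpa3*, *Mcpt8*, *Fcer1a* and *Ms4a2*) were listed, and none was at 0 in any library. For all 4, both *Bptf* cKO libraries were above both controls, as they were for 23.2% of all tested genes. The summed level of the 4 markers was 395 to 1165 normalized counts in control and 4861 to 13942 in *Bptf* cKO. *Cpa3*, a mast cell protease, had 855 and 244 in control and 3645 and 9868 in *Bptf* cKO, and it was the second nearest gene to *Scin* in pattern, at a distance of 0.727 after *Creb3l1* at 0.636. The log2 fold changes of *Cpa3*, *Mcpt8*, *Fcer1a* and *Ms4a2* were 3.71, 3.46, 5.53 and 2.29, and their adjusted p values in limma were 0.104, 0.111, 0.0834 and 0.179, so none of the 4 was called. In control, replicate 1 was above replicate 2 for *Scin*, *Cpa3*, *Mcpt8* and *Ms4a2* and below it for *Fcer1a* and *Avil*, both with 3.10 and 8.32 normalized counts. In *Bptf* cKO, replicate 2 was above replicate 1 for all of these but *Ms4a2*, at 392 and 341. The part of these cells in the levels of *Scin* and *Avil* was not tested.

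*Gsn*, the gene of gelsolin, lies on the plus strand of chromosome 2, from 35256380 to 35307892. It had 1460.3 and 596 normalized counts in control and 988 and 1019 in *Bptf* cKO, so both *Bptf* cKO libraries lay between the control libraries. The means were 1028 ± 611 in control and 1003 ± 21.8 in *Bptf* cKO (SD, n = 2 each), with a log2 fold change of 0.10 (SE 0.41). The difference was -0.56 between the replicate 1 libraries and 0.77 between the replicate 2 libraries, and it became 0.75 without control replicate 1 and -0.54 without control replicate 2. It was -0.040 in edgeR and -0.035 in DESeq2, so no direction can be given for *Gsn* at this spread. Granulocyte and monocyte markers had the order of *Gsn* in the control libraries and the reverse of its order in the *Bptf* cKO libraries. All 7 on the list (*Elane*, *Mpo*, *Ly6g*, *S100a8*, *S100a9*, *Itgam* and *Ltf*) were listed and none was at 0, with summed levels of 58448 and 9948 normalized counts in control and 41968 and 34736 in *Bptf* cKO. *Mpo* was the largest entry of these sums, at 28963 and 6313 in control and 30321 and 28192 in *Bptf* cKO. The list was split by direction between genotypes. *Mpo* and *Elane* had log2 fold changes of 1.11 and 0.63 (limma adjusted p 0.505 and 0.549). The other markers of the list were negative, from -1.22 for *Itgam* to -0.31 for *S100a9*. The part of such cells in the levels of *Gsn* was not tested.

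**Figure D3:**
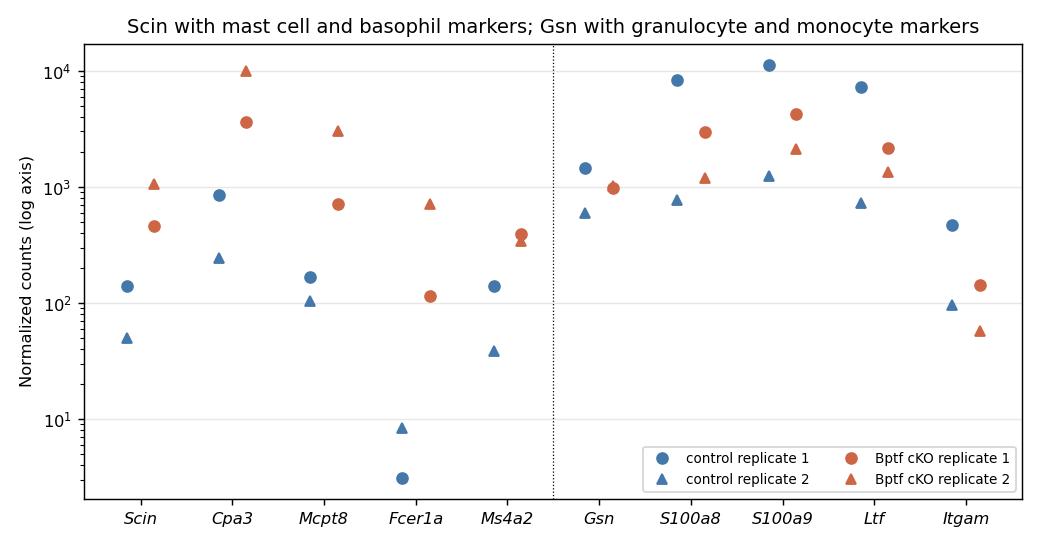
Normalized counts (log axis) of *Scin* with the mast cell and basophil markers (left of the dotted line) and of *Gsn* with *S100a8*, *S100a9*, *Ltf* and *Itgam* (right), with 1 point per library. *Elane*, *Mpo* and *Ly6g* of the granulocyte and monocyte list are not drawn. *Mpo* and *Elane*, at log2 fold changes of 1.11 and 0.63, went the other way from the markers drawn beside *Gsn*. The orange *Bptf* cKO points of *Scin* and of all 4 markers lie above the blue control points, and for *Gsn* the control points at 1460.3 and 596 lie on either side of the *Bptf* cKO points.

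*Capg*, the gene of the capping protein of macrophages, lies on the plus strand of chromosome 6, from 72544391 to 72562983. It had 1903 and 2441 normalized counts in control and 2294 and 3028 in *Bptf* cKO. The groups overlapped, since control replicate 2 was above *Bptf* cKO replicate 1. The means were 2172 ± 380.2 and 2661 ± 519 (SD, n = 2 each), and the log2 fold change was 0.29 (SE 0.19). Within replicate numbers the difference was 0.27 and 0.31, and in both genotypes replicate 2 was the higher library. The 5 macrophage markers (*Adgre1*, *C1qa*, *Csf1r*, *Cd68* and *Cx3cr1*) were all listed with none at 0. Their summed level was 1206 and 608 in control and 533 and 849 in *Bptf* cKO. In control that order was the reverse of the order of *Capg*, and in *Bptf* cKO it was the same.

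*Flii* is on chromosome 11 (minus strand), between 60714123 and 60727263. It had 4596 and 4424 normalized counts in control and 4001 and 4121 in *Bptf* cKO, with both *Bptf* cKO libraries below both controls. The means were 4509.8 ± 121 and 4061 ± 85.2 (SD, n = 2 each), and the log2 fold change was -0.15 (SE 0.088). Within replicate numbers the difference was -0.20 and -0.10. *Llgl1* on the opposite strand shares 64 exonic bases with *Flii*, which is 1.27% of the exonic bases of *Flii*.

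*Svil* lies on the plus strand of chromosome 18, from 4920540 to 5119299. It had 1849 and 1813 normalized counts in control and 1553 and 1719 in *Bptf* cKO, again with both *Bptf* cKO libraries below both controls. The means were 1831 ± 25.9 and 1636 ± 117 (SD, n = 2 each), and the log2 fold change was -0.16 (SE 0.10). The difference was -0.25 between the replicate 1 libraries and -0.077 between the replicate 2 libraries.

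*Vil1*, the villin gene, lies on the plus strand of chromosome 1, from 74409376 to 74435559, and its last 49 exonic bases are shared with *Usp37* on the opposite strand. It had 3.88 and 2.77 normalized counts in control and 3.25 and 7.05 in *Bptf* cKO, from 2 to 5 reads per library. With 7 reads in control and 10 in *Bptf* cKO, the ratio of read rates was 1.28 with an exact conditional 95% interval of 0.439 to 3.96, so a difference was not detectable at this depth. Its mean was under the minimum of 10 normalized counts, and it was the 1 member left out of the fit over all genes.

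Of the 7 members, 6 were tested, and limma called 1 of them, *Avil*, when a call needed an adjusted p under 0.05 and a change of more than 1.5-fold. Over all 14858 tested genes 110 were called, or 0.740%, of which 0.370% were higher and 0.370% lower. *Avil* passed the filter on low values through the *Bptf* cKO libraries alone, since its control mean was below 10, and it was chosen with its difference known, so nothing is read from this count. Leaving out either *Bptf* cKO library ended the call of *Avil*, with log2 fold changes of 7.01 without replicate 1 and 6.27 without replicate 2, and it left 1 called gene in the whole table. The libraries of the genotypes did not overlap for 4 of the 6 tested members, *Avil* and *Scin* (higher) and *Flii* and *Svil* (lower). Over all tested genes 47.0% did not overlap, 23.2% higher and 23.8% lower, and nothing is read from the members' count beside that share. No exact two-sided permutation test of 2 against 2 libraries can give a p below 0.333.

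**Figure D4:**
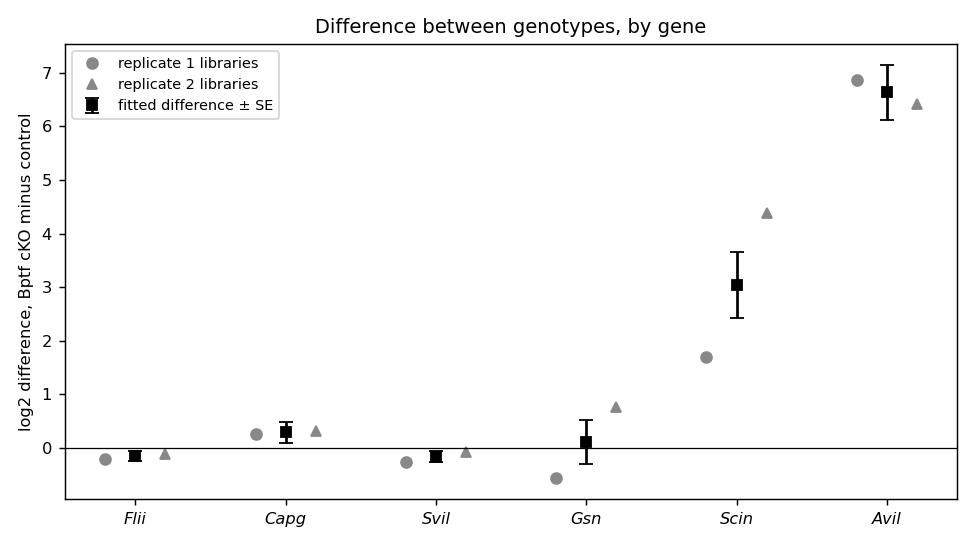
Difference between *Bptf* cKO and control on the log2 scale (normalized count plus 1) for the 6 tested members, with the fitted log2 fold change ± SE as black squares and the difference between the replicate 1 and replicate 2 libraries as grey circles and triangles. *Avil* lies at 6.41 to 6.86, *Scin* spreads from 1.70 to 4.39, *Gsn* changes sign between the replicate numbers, and *Flii*, *Capg* and *Svil* lie near 0.

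The order of the 7 members changed with genotype when levels were set on a common scale, normalized counts per kilobase of annotated exon. In control cells the means ran from *Flii* at 895 and *Capg* at 859 through *Gsn* at 326, *Svil* at 171, *Scin* at 31.7 and *Avil* at 1.68 to *Vil1* at 0.936. *Flii* and *Capg* overlapped between libraries, as did *Avil* and *Vil1*, and the other neighbours in this order did not. In *Bptf* cKO cells the means ran from *Capg* at 1052 and *Flii* at 806 through *Gsn* at 318, *Scin* at 253, *Avil* at 186 and *Svil* at 153 to *Vil1* at 1.45. *Gsn* and *Scin* overlapped between libraries there, as did *Scin* and *Avil* and also *Avil* and *Svil*. *Avil* made up 0.0388% and 0.110% of the summed level of the 7 members per kilobase in control and 5.69% and 7.56% in *Bptf* cKO. For *Scin* these shares were 1.99% and 0.749% in control and 6.22% and 11.5% in *Bptf* cKO. The summed normalized counts of the 7 members were 9956 and 9334 in control and 9771 and 11749 in *Bptf* cKO.

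The nearest patterns of the other members were listed in the same way, and a member with small differences lies close to other such genes by construction. The 3 genes nearest to *Flii* (*Atf7ip*, *2900097C17Rik* and *Pigg*) were within a distance of 0.0175 on the log2 scale, those nearest to *Svil* (*Rnf25*, *Mex3a* and *Kctd3*) within 0.0239, and those nearest to *Capg* (*Gm14091*, *Nmi* and *Syne3*) within 0.0358. Those nearest to *Gsn* were 3 genes of low level, *Gm43080*, *Zfp988* and *Gm17249*, within 0.121.

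Other genes that build, cut and crosslink actin filaments were counted from lists by textbook role. Of 112 genes 108 were listed and 105 tested, and limma called 0 higher and 1 lower, beside 55 and 55 of all 14858 tested genes. Of the 105, 19 had an unadjusted p under 0.05 in limma, beside 2340 of all tested genes. The median log2 fold change of the 105 was 0.019, beside 0.0010 over all tested genes. The gene called was *Actn1*, a nonmuscle α-actinin that crosslinks filaments at adhesions. *Actn1* had 1049 and 1052 normalized counts in control and 493 and 525 in *Bptf* cKO, a log2 fold change of -1.04 (SE 0.12, limma adjusted p = 0.0394). Its call was lost when any 1 of the 4 libraries was left out. edgeR called 1 gene of these lists, lower, beside 94 of all tested genes (49 higher, 45 lower). DESeq2 called 7, all lower, beside 698 of all tested genes (252 higher, 446 lower). Nothing is read from these counts beside those over all genes.

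By role, the 10 actin and monomer-binding genes had a median log2 fold change of 0.017, and *Actb*, the cytoplasmic β-actin, had 40763 and 44011 normalized counts in control and 40311 and 48723 in *Bptf* cKO. Their largest differences were 0.80 for *Cap2*, -0.24 for *Pfn2* and 0.18 for *Pfn1*, with limma adjusted p values from 0.437 to 0.884. The 18 tested genes of severing and disassembly outside the family had a median of 0.10 and ran from -0.54 for *Ssh1*, a cofilin phosphatase (limma adjusted p = 0.216), to 0.45 for *Mical2* (0.439), with *Limk2* at 0.34 (0.379). *Cfl1*, the main cofilin and like gelsolin a severing protein, had a log2 fold change of 0.095 (adjusted p = 0.677, limma).

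The 14 genes of filament end capping had a median log2 fold change of -0.12. *Add2*, the β-adducin of the red cell membrane skeleton, had 204 and 144.1 normalized counts in control and 3.90 and 36.7 in *Bptf* cKO, a log2 fold change of -3.67 (SE 0.97, limma adjusted p = 0.183). *Tmod1*, a pointed-end cap of red cells and muscle, had 45.0 and 66.5 in control and 9.10 and 16.9 in *Bptf* cKO (-2.05, limma adjusted p = 0.155). *Carmil1*, a regulator of capping protein, had a log2 fold change of 0.90 (adjusted p = 0.280, limma). Erythroid markers were measured beside *Add2* and *Tmod1*. All 5 on the list were listed with none at 0. For 4 of the 5, both *Bptf* cKO libraries were below both controls, as they were for 23.8% of all tested genes. *Hba-a1* overlapped, with 45.0 and 52.7 in control and 9.75 and 55.0 in *Bptf* cKO. The summed level of the 5 markers was 560 to 850 in control and 164 to 230 in *Bptf* cKO, and *Epor* was called lower (log2 fold change -1.96, limma adjusted p = 0.0443). Their part in the levels of *Add2* and *Tmod1* was not tested.

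The 30 tested genes of nucleation and elongation had a median log2 fold change of 0.0078. Their 3 largest differences were negative, at -1.15 for *Spire1*, an actin nucleator (limma adjusted p = 0.0533), -0.88 for *Evl*, an Ena/VASP protein (0.133), and -0.87 for *Spire2* (0.355). The 19 crosslinking and bundling genes had a median of -0.12, with *Fscn1*, the fascin that bundles filaments in filopodia, at -1.78 (limma adjusted p = 0.0969) and *Pls1* at -0.93 (0.498) beside *Actn1*. Of 5 genes with a villin headpiece or close kinship to villin outside the 7 members, 4 were tested, with a median of -0.32. *Dmtn* was at -0.76, *Ablim1* at -0.36 and *Vill* at -0.28, with limma adjusted p values from 0.379 to 0.591. *Lrrfip1* and *Lrrfip2*, whose proteins bind FLII, had log2 fold changes of -0.020 and 0.072. The 8 tested genes of SRF, its MRTF cofactors and their targets had a median of -0.015, with *Zyx* at -0.39 (limma adjusted p = 0.186), *Tagln2* at 0.39 (0.218) and *Mrtfa* at -0.27 (0.375).

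**Figure D5:**
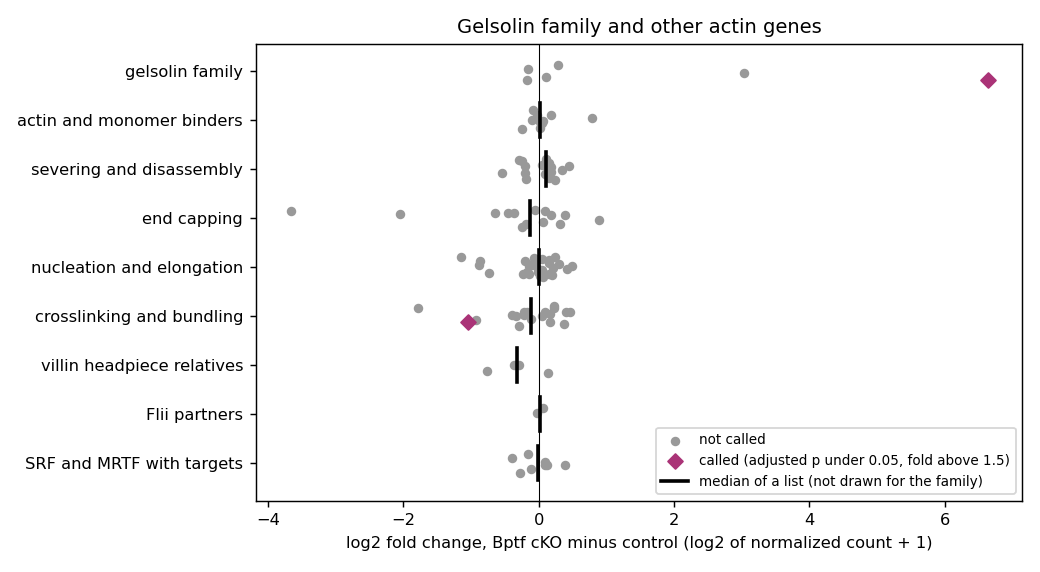
log2 fold change (*Bptf* cKO minus control, log2 of the normalized count plus 1) of the 6 tested gelsolin family genes and of 105 tested actin genes in 8 lists by role, with 1 point per gene, diamonds for genes called and black bars for list medians. The medians of the 8 lists lie between -0.32 and 0.10, with *Actn1* the only diamond among them, while *Avil* lies at 6.64 and *Scin* at 3.04.

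The remaining marker lists bear on what else the sorted cells held. Of 3 T cell markers only *Cd4* was listed, at 126 and 90.1 normalized counts in control and 79.9 and 50.8 in *Bptf* cKO. The 3 B cell markers summed to 593 to 2520 (*Cd79a* had a log2 fold change of -0.0059), with *Ms4a1* at 0 in *Bptf* cKO replicate 2. The 5 megakaryocyte markers, a lineage that uses gelsolin and adseverin, summed to 5444 to 6675 in control and 4830.2 to 5002 in *Bptf* cKO. Limma called 0 of the 5, beside 0.740% of all tested genes. *Vwf*, *Gp1bb* and *Pf4* had the largest log2 fold changes, at -1.02, -0.93 and -0.81 (limma adjusted p from 0.259 to 0.631), while *Itga2b*, the most abundant of the list, was at 0.083 and *Gp9* at -0.18. Of 5 stromal markers *Col1a1* and *Cxcl12* were listed, summing to 10.4 to 40.9 over the 4 libraries.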

How the data were processed

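RNA-seq of 4 LSK libraries was used. Per the labels, the authors' processing notes name HISAT2, featureCounts, DESeq2 and GRCm38 (mm10), without versions. The authors deposited a signal, the reads of each gene scaled by the size factor of the library, with their own fold changes, errors and p-values, which were not used. All values (100%, within 0.001) were whole multiples of the value of 1 read. Genes with a mean of at least 10 were tested on log2(value + 1) with limma 3.58.1 (R 4.3.3, mean-variance trend, genotype only, two-sided, Benjamini-Hochberg over 14858 genes). The fit was tested on simulated data with known changes. edgeR 4.0.16 and DESeq2 1.42.0 were run on the recovered reads. Nothing says that libraries came from separate experiments beyond their separate pools of mice, so the spread may be partly technical.

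Members and lists were chosen with earlier results of these data known. Named genes were the 7 members, *Bptf* and called genes or up to the 3 largest differences of each list. The nearest patterns (8 for *Avil*, 3 for others) and chromosomal neighbours were also named. *Xist*, *Ddx3y*, *Eif2s3y*, *Pou5f1*, *Actb*, *Cfl1*, *Kit* and some markers were added after their values were seen. Exon lengths and positions came from GENCODE vM21 (98.2% of listed genes for percentiles), promoters from RefSeq. *Mrtfa* was matched by its older symbol. Some marker genes of these lists are not reported here. Alternatives were other pseudocounts (0.5, 10), filters, scalings, tools and thresholds, a replicate block and each library left out.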

Additional observations from a re-analysis of the deposited data

How the results depend on the processing

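Over all genes, 110 calls became 2 without the trend, 698 with DESeq2 (252 higher, 446 lower), 7 at an adjusted p under 0.01 and 1 to 117 with a library left out (64 without control replicate 2, 1 without either *Bptf* cKO library). Over the actin lists, 1 call became 0 without the trend or at an adjusted p under 0.01, 7 with DESeq2 and 0 with any library left out. A pseudocount of 10 shrinks the fold change of a gene with low controls by construction. With it *Avil* had a log2 fold change of 5.33, and over all 14 alternatives *Avil* ran from 5.33 to 7.23. Limma without the trend ended its call. The difference of *Flii* was -0.10 with libraries recentred on their medians and -0.20 with quantile normalization. *Scin* ran from 2.31 to 3.78, and DESeq2 called it. With the replicate number as a block, limma called 1299 genes (454 higher, 845 lower, beside 55 and 55), 9 of the actin lists, *Avil* and *Scin*. The labels do not say that a number marks a shared batch, and deviations of same-numbered libraries from their group means correlated at 0.452 across genes. Other causes of these moves were not tested. *Gsn* changed sign without control replicate 2, in edgeR and in DESeq2, and *Capg*, *Flii* and *Svil* kept their direction in all 14 alternatives. Depth limits the control level of *Avil* and both levels of *Vil1*.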
